A study of Drosophila melanogaster with 12 samples.

Results

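The strand of transposon piRNAs bound to Ago3 was compared with that of piRNAs bound to Aub in aubWT ovaries of Drosophila melanogaster, from 1 immunoprecipitation library of each protein out of 12 libraries in the series. A transposon entered the comparison when it had at least 50 read copies in both libraries, which kept 123 of 126 transposons. The other 10 libraries come from w1118, csulRM50 and aubRK ovaries (Ago3 and Aub each), from aubWT ovaries (Piwi), and from y w ovaries (Ago3 only), and a pair of Piwi aubRK libraries is used once. In all of them the flies were 2 to 5 days old and ovaries were pooled, so that 1 library averages many animals and carries no measure of the spread between them.

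The aubWT females combine the aub null alleles QC42 and HN2 with a UAS transgene of HA-tagged wild-type aub. Because nos-Gal4 is active in germ cells, the transgene supplies Aub there and no endogenous protein is made. The aubRK females share that background, driver and tag, with N-terminal arginines of the transgenic Aub changed to lysines. The w1118, csulRM50 and y w females have their own aub gene and no transgene, and csulRM50 is a mutation of the methyltransferase that modifies those arginines. Ago3 was precipitated from aubWT with the antibody aAgo3-380 and Aub with a-Aub-83. The Ago3 library carried an 8-nt random barcode in its 3′ adaptor, used by the authors to collapse PCR copies, whereas that of Aub carried none. Protein and adaptor therefore change together in every difference between Ago3 and Aub given for aubWT, and their parts cannot be told apart from these 2 libraries alone.

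PIWI proteins use piRNAs as guides that recognise transposon RNA by base pairing. In the germline ping-pong cycle, Aub loaded with a piRNA antisense to a transposon cleaves the transposon mRNA, and a fragment of it becomes a sense piRNA in Ago3, which in turn cleaves antisense precursor transcripts and gives new antisense piRNAs to Aub. Aub and Ago3 are proteins of the germline, whereas Piwi is also made in the somatic follicle cells that surround it. The measurement here is the sense share, the percentage of read copies of a transposon that align in the orientation of its consensus sequence.

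The sense share was higher in Ago3 than in Aub for most of the abundant germline elements, and lower for a smaller set of LTR elements and DNA transposons. Ago3 held 8798559 read copies on transposons, of which 56.2% were sense, and Aub held 26508021, of which 29.8% were sense, a pooled difference of 26.3 points (Newcombe 95% interval 26.30 to 26.38). Intervals take each read copy as an independent molecule and cover no spread between libraries, as each protein has 1 library. PCR copies in the Aub library are not independent, so the intervals can be too narrow even for counting error. The median transposon was 50.3% sense in Ago3 and 36.3% in Aub. Per transposon, 80 of 123 (65.0%) were higher in Ago3 and 43 were lower, with a median difference of 7.71 points and quartiles of −4.69 and 26.5. A gap of over 10 points toward Ago3 was present for 55 transposons (44.7% of those compared) and a gap of over 10 points toward Aub for 18 (14.6%), while 50 lay within 10 points. With 1 library a protein no test was possible, and the size of 10 points stands in its place.

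**Figure D1:**
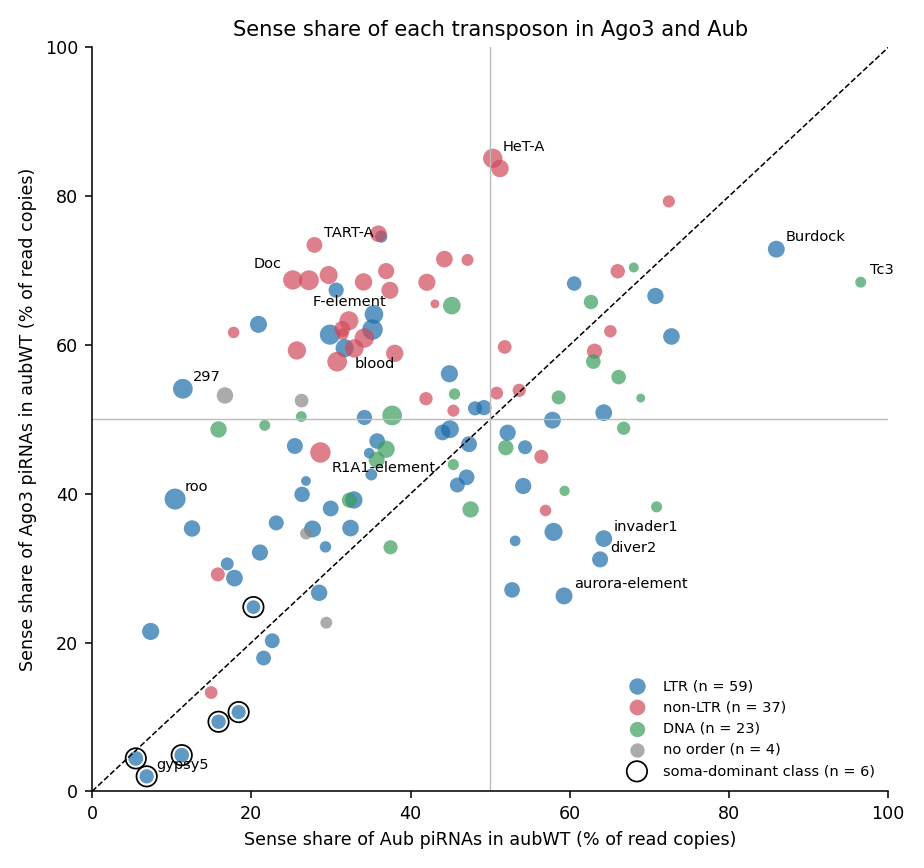
Sense share of each of the 123 transposons in the Aub library (horizontal axis, percent of read copies) and in the Ago3 library (vertical axis, percent of read copies) of aubWT. Points are transposons coloured by order and larger with mean abundance, the dashed line marks equal shares, and the grey lines mark 50%. Non-LTR elements lie mostly above the dashed line, the 6 circled soma-dominant elements lie in the lower left, and aurora-element, diver2 and invader1 lie far below the line.

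Sense shares differed more between Ago3 and Aub than between the only libraries of 1 condition in the series. Between both Piwi aubRK libraries, of which 1 has the barcode and 1 does not, the median size of the difference was 2.44 points, against 13.1 points between Ago3 and Aub in aubWT. Over 10 points, 6 of 118 transposons (5.08%) were higher and 11 (9.32%) were lower in the barcoded Piwi library. The pooled difference between them was −1.81 points. Between Ago3 of aubWT and Ago3 of y w, which differ in genotype and barcode, the median size of the difference was larger, at 6.61 points. Of 123 transposons, 25 were over 10 points higher in Ago3 of aubWT and 16 were over 10 points lower. The interval of the Ago3 and Aub difference, which takes every Aub copy as independent, left out 0 for 115 transposons. It held 0 for G5, G5A, HB, P-element, R1-2, copia, gypsy9 and jockey2, and this count is not a test. The half-widths of these intervals had a median of 0.853 points and reached 12.8 for the least covered element.

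Across the 123 transposons the Ago3 and Aub sense shares were only loosely related, at 0.348 by Spearman's rank measure and 0.42 by Pearson's, as a description of transposons measured in the same libraries. Their abundances in both libraries were much more alike, at 0.965 by the rank measure. In aubWT an element could thus take a similar part of both libraries and still be mostly sense in one and mostly antisense in the other. The rank measure of the Ago3 and Aub sense shares was higher in other genotypes, at 0.730 in w1118, 0.799 in csulRM50 and 0.816 in aubRK. Neither library of those pairs had a barcode, and the part of the adaptor was not tested.

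When the transposons were sorted by which strand led in each protein, the arrangement of sense in Ago3 with antisense in Aub held 41 of them. These were 23 non-LTR elements, 12 LTR elements, 4 DNA transposons and 2 without an order, and 11 were of the germline-dominant class. They took 61.4% of Ago3 copies and 56.7% of Aub copies. Both proteins were mostly antisense for 45 transposons with 27.0% of Ago3 and 33.6% of Aub copies, among them 32 LTR elements, all 6 soma-dominant elements and 9 of the 10 intermediate ones. Both were mostly sense for 21 transposons with 7.47% and 6.04% of copies. The inverted arrangement, antisense in Ago3 with sense in Aub, held 16 transposons (10 LTR, 4 DNA and 2 non-LTR) with 4.11% and 3.71% of copies.

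The pooled difference came from strand partition inside transposons and hardly from the make-up of the libraries. An exact split of the 26.3 points gave 24.5 points (92.9%) to differences in sense share within transposons and 1.87 points to differences in abundance between the libraries. Of the first part, roo gave 3.84 points, GATE 2.33 and F-element 2.17, together 34.1%. The 10 highest contributors, which also include Max-element with 2.06, 297 with 2.03, Doc with 1.49, R1A1-element with 1.44, HeT-A with 1.27, Rt1b with 1.21 and Cr1a with 1.02, gave 77.1%. The 80 positive terms summed to 25.6 points and the 45 negative ones to −1.10, with gypsy12 at −0.28, aurora-element at −0.17 and invader1 at −0.13. The 18 elements over 10 points toward Aub held only 4.45% of Ago3 and 4.21% of Aub copies, and the 55 over 10 points toward Ago3 held 88.1% and 87.6%.

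**Figure D2:**
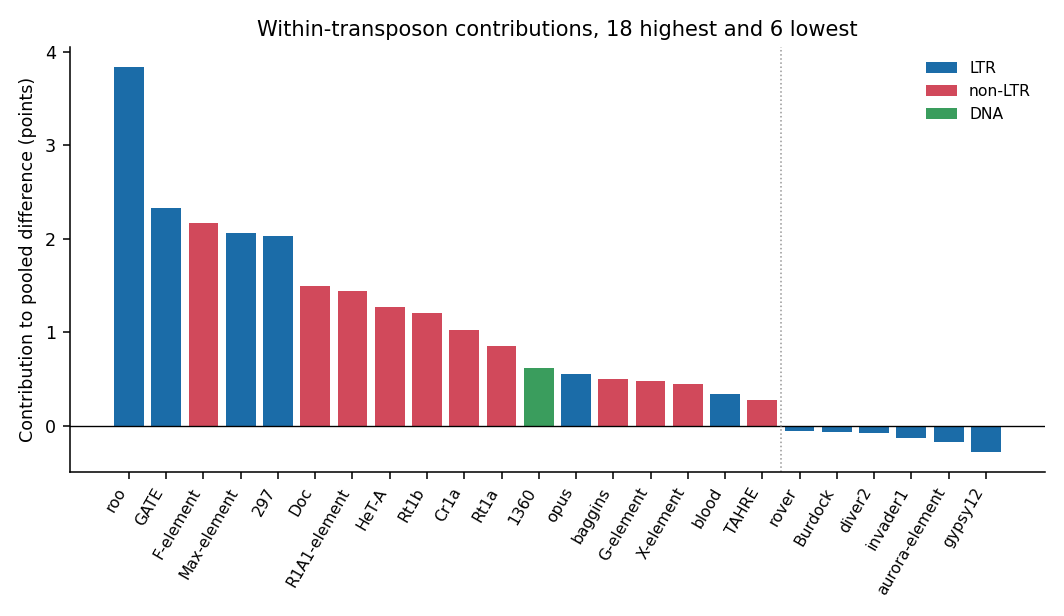
Within-transposon contribution to the pooled difference in sense share (points), for the 18 transposons with the highest and the 6 with the lowest contributions, as bars from 0 coloured by order. The dotted line separates both sets. roo leads with 3.84 points, and the most negative bar, gypsy12, reaches −0.28.

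The most abundant elements all leaned the same way. The 10 with the highest mean abundance held 64.0% of Ago3 and 63.7% of Aub copies, and each was over 10 points higher in Ago3, from 12.8 points in the DNA transposon 1360 to 42.7 points in 297. The 5 at the top are the LTR retrotransposons roo, GATE and Max-element, the non-LTR F-element, and R1A1-element, a non-LTR element that inserts into ribosomal RNA genes. roo (FBgn0000155) was 39.3% sense of 996868 copies in Ago3 and 10.4% of 4049079 in Aub, a difference of 28.9 points. It was antisense in the majority in both proteins, unlike GATE and Max-element. GATE (FBgn0015945) was 62.1% sense in Ago3 and 35.2% in Aub, and Max-element (FBgn0063919) was 61.4% and 29.9%. R1A1-element (FBgn0003908) had the smallest gap of the 5, from 45.5% to 28.7%. Of the 16 transposons with at least 100000 copies in Ago3, 16 were over 10 points higher there, whereas of the 21 compared that had fewer than 1000 copies 12 were higher by any amount.

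The largest gaps toward Ago3 were in 4 non-LTR and LTR elements of the germline-dominant class and in TART-A and Fw3, which the files leave without a class. TART-A (FBgn0004904), a retrotransposon that extends telomeres, was 73.4% sense of 26475 copies in Ago3 and 27.9% of 26940 in Aub, a difference of 45.5 points. Fw3, a relative of F-element with few reads, was 61.7% sense of 535 copies and 17.8% of 2436. Doc (FBgn0000481) was 68.7% sense of 393938 copies in Ago3 and 25.2% of 629628 in Aub. All 3 are non-LTR elements that turned from a majority antisense in Aub to a majority sense in Ago3. F-element (FBgn0000652) was 68.7% sense of 569840 copies in Ago3 and 27.2% of 1057111 in Aub. The LTR element 297 (FBgn0000005) was 54.1% sense of 303913 copies and 11.4% of 1603434. Its relative 17.6 (FBgn0000004) was 62.8% sense of 31464 copies and 20.9% of 190770. For 297 and roo the values depended on the Ago3 library, as Ago3 from y w was 10.8% sense on 297 and 15.7% on roo. The difference of 297 against Aub aubWT was then −0.57 points and that of roo 5.25 points.

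**Figure D3:**
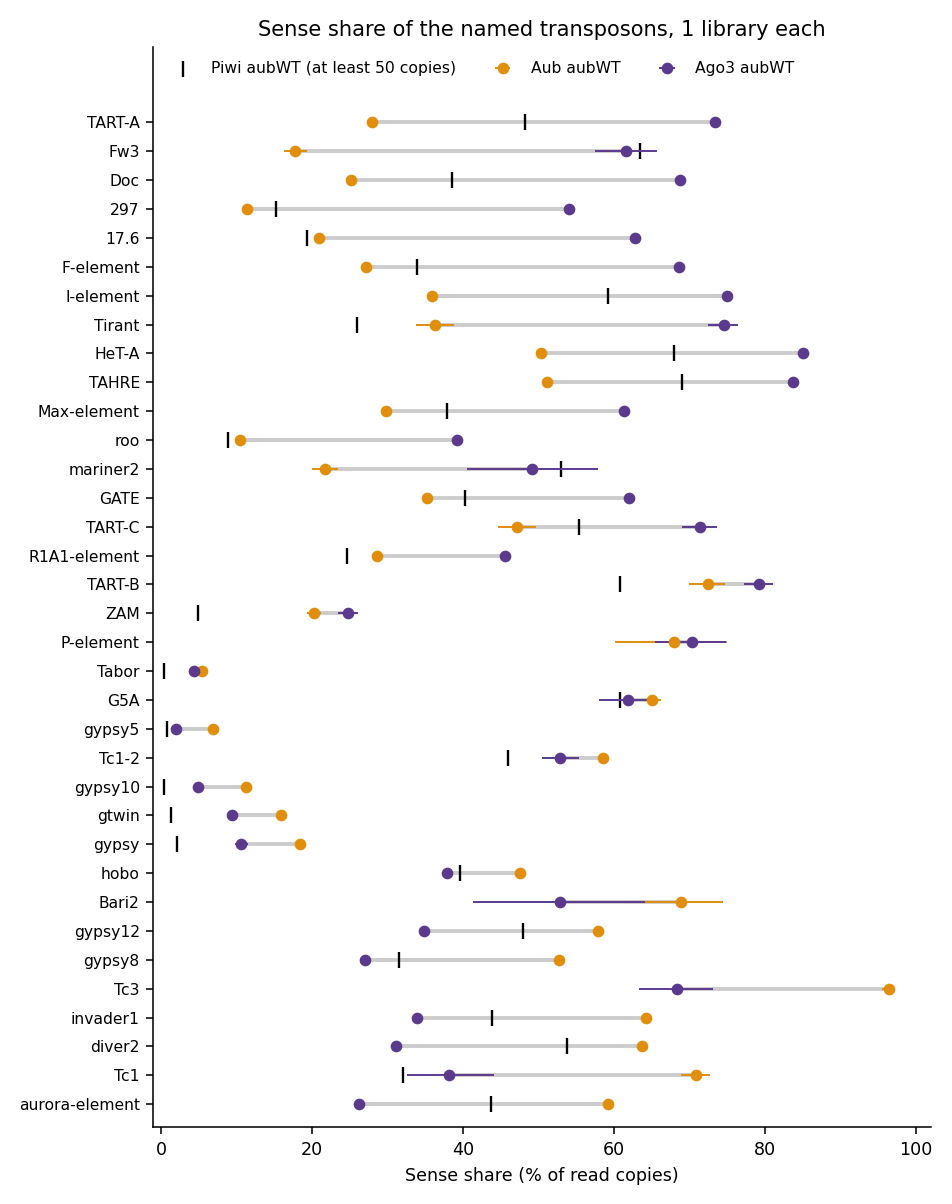
Sense share (percent of read copies, horizontal axis) of the transposons named by rule, 1 library for each protein in aubWT. Purple points are Ago3, orange points Aub, and thin bars their Wilson 95% intervals (each read copy taken as independent). Black ticks are Piwi where it had at least 50 copies. The order runs from TART-A, 45.5 points higher in Ago3, down to aurora-element, 33.0 points lower.

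The telomeric elements, which replace the missing telomerase of flies, were all more sense in Ago3, in 5 of 5 with a median difference of 32.5 points. HeT-A (FBgn0004141), the most abundant of them, was 85.1% sense in Ago3 and 50.3% in Aub, and TAHRE was 83.7% and 51.2%. TART-C was 71.4% sense of 1449 copies in Ago3 and 47.2% of 1457 in Aub. TART-B had the smallest gap, 79.3% of 1695 copies against 72.4% of 1386, and with Ago3 from y w the sign turned, to −15.2 points. TART-A, TART-B and TART-C share 1 FlyBase identifier, and a read can be counted on more than 1 of them. Ago3 thus carried more than 70% sense copies on every telomeric element, while Aub ranged from 27.9% on TART-A to 72.4% on TART-B.

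The elements behind hybrid dysgenesis did not move together. I-element, a non-LTR element, was 74.95% sense in Ago3 and 36.0% in Aub, a gap of 39.0 points. The DNA transposon hobo was 37.9% sense in Ago3 and 47.5% in Aub, a difference of −9.65 points. P-element, with 365 copies in Ago3 and 147 in Aub, was 70.4% and 68.0% sense, a difference of 2.38 points whose interval holds 0. The aub transgenes were introduced by P-element transgenesis, so that P-element reads of aubWT cannot be told apart from the transgene.

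By order, most non-LTR elements were more sense in Ago3, whereas single DNA transposons were split evenly between both directions. Of 37 non-LTR elements 32 were more sense in Ago3, 26 of them by over 10 points and 2 lower by that much, with a median of 26.6 points beside 7.71 over all transposons. The order was 63.5% sense in Ago3 and 32.8% in Aub when its copies were pooled. Of 59 LTR elements 34 were higher, 22 by over 10 points, and 10 were lower by over 10 points, with a median of 3.73. With Ago3 y w in place of Ago3 aubWT, 31 of 59 LTR elements were higher, with a median of 0.52. Of the non-LTR elements 31 of 37 were then higher, with a median of 21.5. The LTR order held 47.4% of Ago3 and 52.6% of Aub copies, and its pooled shares of 50.1% and 26.4% sense rest on its abundant members. Of 23 DNA transposons 11 were higher and 12 lower, with a median of −1.45 points. Their pooled copies were 51.5% sense in Ago3 and 39.2% in Aub, a difference of 12.3 points toward Ago3. With identical reads counted once in the Aub library the DNA median of these 23 was 6.24 points with 13 higher, so its sign depended on how copies were counted. The DNA transposons that changed sign were Bari2 and HB. They had 9 and 49 Aub entries, below the minimum of 50 entries used for the other counts by entries.

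By the cell-type classes of the files, the gap was wide in the germline-dominant class and narrower in the intermediate class. In the soma-dominant class the median lay toward Aub, with 0 of 6 elements past 10 points either way. Of 19 germline-dominant elements 15 were higher in Ago3, 14 of them by over 10 points, with a median of 28.9. The class held 55.3% of Ago3 and 51.9% of Aub copies, and was 58.8% sense in Ago3 and 24.8% in Aub. Inside it all 9 non-LTR elements were higher (median 32.5 points), while of the 9 LTR elements 5 were higher and 4 lower. Those 4 were rover (50.9% in Ago3 and 64.3% in Aub), invader4 (49.9% and 57.8%), 1731 (42.2% and 47.0%) and 3S18 (66.6% and 70.8%), named after their values were seen. Of 10 intermediate elements 8 were higher, 5 of them by over 10 points, with a median of 9.30. The LTR element blood led them at 59.6% in Ago3 and 31.7% in Aub. Of the 88 elements compared that have no class, 56 were higher and 32 lower, with a median of 7.16.

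**Figure D4:**
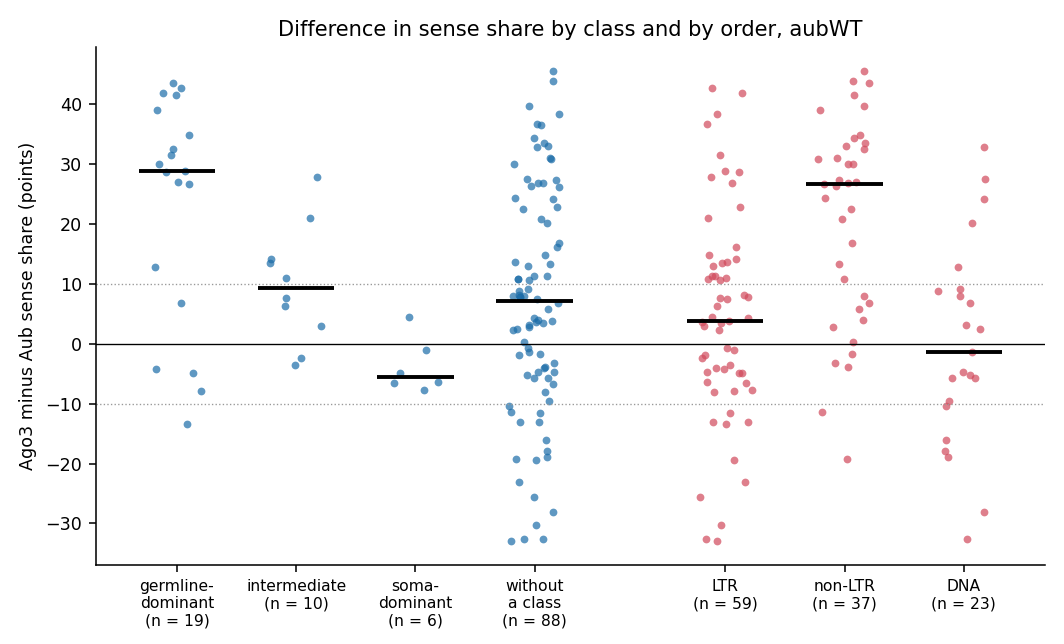
Ago3 minus Aub sense share (points) in aubWT for each transposon, by the cell-type class of the files (blue) and by order (red), with black bars at the medians and dotted lines at 10 points either way. Medians are 28.9 for germline-dominant, 9.30 for intermediate and −5.62 for soma-dominant elements, and 26.6 for non-LTR, 3.73 for LTR and −1.45 for DNA elements.

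The 6 soma-dominant elements, LTR retrotransposons among which gypsy and ZAM are well known from follicle cells, were strongly antisense in both proteins, and 5 of 6 were less sense in Ago3. gypsy was 10.6% sense in Ago3 and 18.4% in Aub, gtwin 9.35% and 15.9%, and gypsy10 4.86% and 11.3%. gypsy5 was 2.01% sense in Ago3 and 6.86% in Aub, and Tabor 4.42% and 5.49%. ZAM was the exception at 24.8% in Ago3 and 20.3% in Aub. The median difference was −5.62 points, and the class took 0.483% of Ago3 and 0.307% of Aub copies. Piwi from the same genotype was 0.35% to 4.84% sense on these elements. With the Ago3 library of y w the median was 0.033 points and 3 of 6 were higher, so the direction in this class rested on the Ago3 library. Of the 6 follicle-cell elements of a background list, with Idefix in place of gypsy10, 2 were higher in Ago3, beside 80 of 123 (65.0%) over all transposons. Of its 7 germline elements 7 were over 10 points higher (median 39.0), beside 55 of 123 (44.7%) over all. The list was drawn up with earlier results of these data known. It leaves out the 4 germline-dominant elements that were lower in Ago3.

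The inverted arrangement was led by LTR elements of fair abundance. aurora-element (FBgn0010103) was 26.3% sense of 49747 copies in Ago3 and 59.3% of 119060 in Aub, the largest gap toward Aub at −33.0 points. diver2 was 31.2% sense of 24111 copies in Ago3 and 63.8% of 56828 in Aub. invader1 was 34.0% sense of 45028 copies and 64.3% of 90814. Each of the 3 was mostly sense in Aub and mostly antisense in Ago3. gypsy12, the most abundant of them, was 34.9% sense of 97806 copies in Ago3 and 58.0% of 358671 in Aub. It shares its identifier with invader6, and whether any reads were counted on both was not tested. gypsy8 was 27.1% sense of 19763 copies in Ago3 and 52.7% of 33223 in Aub. The DNA transposon Tc1 (38.2% of 272 copies and 70.9% of 2096) rests on far fewer Ago3 reads. The other elements with the inverted arrangement were Dm88, G3, INE-1, Rt1c, accord2, diver, frogger, invader4, transib1 and transib4. Tc3, also a DNA transposon, was among the 6 largest gaps toward Aub but mostly sense in both proteins, at 68.4% of 339 copies in Ago3 and 96.5% of 1530 in Aub.

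At the minimum of 50 copies, Bari2 was just inside with 70 copies in Ago3 and 238 in Aub, at 52.9% and 68.9% sense. Helitron was just outside with 27 and 238 copies, at 51.9% and 100% sense. BS4 (21 copies in Ago3 and 139 in Aub) and Penelope were also left out. Penelope had 18 copies in Ago3 and 0 in Aub, which allows a share of up to 1.13e-05% of Aub copies.

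Piwi aubWT, which carried a barcode as the Ago3 library did, did not lie simply between both proteins. Of 119 transposons with at least 50 copies in Piwi as well, Piwi had a sense share below both others in 65, between them in 44 and above both in 10. It was nearer to Aub in 78. On roo Piwi was 8.90% sense, below Aub at 10.4%, and on 297 it was 15.2%. On TART-A it was 48.2% and on Doc 38.6%, between both proteins. On HeT-A Piwi was 68.0% sense. On aurora-element it was 43.7% and on diver2 53.8%, again between Ago3 and Aub but with Ago3 at the lower end. Of the 28 transposons over 50% sense in Piwi, 14 were higher and 14 lower in Ago3 than in Aub (median −0.07 points), whereas of the 55 between 25% and 50% in Piwi 39 were higher (median 11.3), and of the 36 at or below 25% 25 were higher (median 7.68).

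Total abundance was within 2-fold for most elements. On the scale of log2(CPM + 1), where CPM is scaled to the library total on transposons, 6 of 123 elements (4.88%) were over 2-fold higher in Ago3 and 19 (15.4%) over 2-fold lower, of which 10 were DNA transposons. The median log2 ratio was −0.16, and moved to 0 with DESeq2 size factors and to −0.35 with identical reads counted once. The 3 largest rises were P-element (log2 ratio 2.70), Tirant (1.89, an LTR element with 1777 copies in Ago3 and 1421 in Aub) and TART-B (1.86). With identical reads counted once these were 1.18, 1.38 and 1.961, on 12, 52 and 33 Aub entries. The 3 largest falls were the DNA transposons mariner2 (−2.52, 124 and 2269 copies) and Tc1-2 (−2.02) and the non-LTR element G5A (−1.66). All 6 had at most 20013 copies in either library, and none was among the 10 most abundant elements. Tirant was also 74.6% sense in Ago3 and 36.3% in Aub.

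Split by strand, with each strand scaled to the whole library, the sense copies of the median element were slightly more abundant in Ago3 and the antisense copies less so. The median log2 ratio was 0.21 for sense copies, with 25 elements over 2-fold higher and 14 lower, and −0.47 for antisense copies, with 10 higher and 33 lower. For Doc the log2 ratio was 2.36 for sense copies and −0.34 for antisense copies. For 297 these were 1.44 and −1.76, and for roo 1.48 and −0.99. Both strands thus parted for these elements, whereas on aurora-element the sense copies were at −0.84 and the antisense copies at 1.19.

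The unit of counting touched the Aub library only. Its 26508021 copies came from 677307 entries, in which identical reads count once, or 39.1 copies per entry, while copies and entries were equal in Ago3. Aub had 34.2 copies per entry on the sense strand and 41.7 on the antisense strand. By entries Aub was 34.2% sense and the pooled difference was 21.996 points. Among the 112 transposons with at least 50 entries, 74 (66.1%) were higher in Ago3, 48 (42.9%) by over 10 points, and 17 (15.2%) were lower by over 10 points. Of all 123 the sign turned for 3, Bari2, HB and Osvaldo. The difference of a transposon moved by a median of 2.41 points, and by at most 12.5 points (FB) among the 93 with at least 10000 Aub copies. Entries are molecules in the barcoded Ago3 library but distinct sequences in Aub, so that this unit is not the same on both sides either.

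In other genotypes the same comparison gave a more uniform lean toward Ago3 in w1118 and csulRM50 and a median on the side of Aub in aubRK. The w1118 and csulRM50 libraries came from another protocol, adaptor and antibodies, without a barcode for either protein, and the aubRK libraries from the protocol and antibodies of aubWT, also without a barcode. Ago3 minus Aub was 20.3 points pooled in w1118, with 107 of 121 transposons higher (88.4%), 88 by over 10 points (72.7%) and 7 lower by that much (5.79%), and a median of 22.1. In csulRM50 it was 15.5 points pooled, with 101 of 121 higher (83.5%), 68 by over 10 points (56.2%) and 7 lower (5.79%), and a median of 12.96. In aubRK it was −5.41 points pooled, with 41 of 123 higher (33.3%), 11 by over 10 points (8.94%) and 38 lower (30.9%), and a median of −3.13. The pooled gap was thus widest in aubWT, while the median gap was wider in w1118 and csulRM50. With the unbarcoded Ago3 library of y w in place of Ago3 aubWT, the pooled gap was 18.2 points, below that of w1118. No test of these differences could be had with 1 library each.

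**Figure D5:**
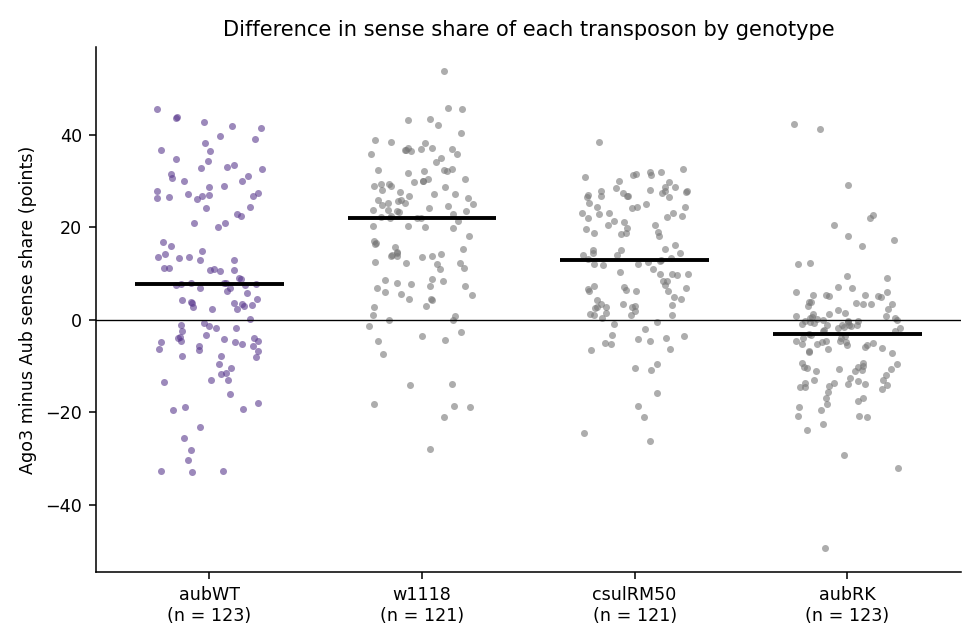
Ago3 minus Aub sense share (points) of each transposon with at least 50 copies in both libraries of a genotype, with black bars at the medians. The medians are 7.71 in aubWT, 22.1 in w1118, 12.96 in csulRM50 and −3.13 in aubRK.

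In w1118 and csulRM50 most transposons leaned toward Ago3, and so did most of those that leaned toward Ago3 in aubWT. Of those over 10 points toward Aub in aubWT, a minority leaned toward Aub there, but a larger share than among all transposons. Of the 55 over 10 points higher in aubWT, 53 were positive in w1118, 51 in csulRM50 and 31 in aubRK. Of the 18 over 10 points lower, 7 of 17 compared were negative in w1118, 8 of 17 in csulRM50 and 14 of 18 in aubRK. Over all transposons, 107 of 121 (88.4%) were positive in w1118, 101 of 121 (83.5%) in csulRM50 and 41 of 123 (33.3%) in aubRK. In the same order 14 of 121, 20 of 121 and 82 of 123 were negative, and these are counts only. The inverted arrangement of strands held 16 transposons in aubWT, 1 in w1118, 2 in csulRM50 and 9 in aubRK.

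Single elements show both kinds. Doc was 32.4% sense in Ago3 and 6.57% in Aub of w1118, and 37.3% and 27.8% in aubRK. aurora-element kept its sign in w1118 at 79.4% in Ago3 and 93.5% in Aub, and in csulRM50 at 79.8% and 90.3%. gypsy8 did not, at 62.5% in Ago3 and 29.9% in Aub of w1118. aurora-element was therefore mostly sense in both proteins of w1118, where aubWT had it mostly antisense in Ago3. The soma-dominant elements were 34.8% to 48.7% sense in Ago3 and 10.4% to 20.9% in Aub of w1118, all 6 higher in Ago3.

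Part of the spread lay between Ago3 libraries of wild-type Aub. Ago3 from y w, made without a barcode and from flies with endogenous Aub, was 48.1% sense, 8.10 points below Ago3 aubWT. Against Aub aubWT, the library with the same adaptor, Ago3 y w was 18.2 points higher when pooled, with 78 of 125 transposons higher and a median of 6.003 points. Genotype and adaptor both differ between these Ago3 libraries, and the part of each was not tested.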

How the data were processed

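Per the methods of the study and the submitters' processing notes, the authors trimmed adaptors with cutadapt 2.3, collapsed identical reads of the libraries with an 8-nt barcode, aligned reads end to end to FlyBase consensus transposons with STAR 2.4.2a and kept the best-scoring alignments, so that a read can be counted on several consensus sequences. The authors deposited whole-number counts per transposon and orientation, without normalization, as read copies (the main measure) and as entries. The meaning of both was taken from column names and values. Consensus sequences have no genome position, and none is given.

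Copies were summed per transposon. Sense shares had Wilson and their differences Newcombe 95% intervals (Python 3.11.15, scipy 1.17.1). Abundance was log2(CPM + 1) per library total on transposons. Depth was 8798559 copies for Ago3 and 26508021 for Aub, and 3 copies set the limit for a value of 0. Groups came from sample titles. The aubWT files call that genotype WT8 in their sample column, a name the labels do not explain. Each group had 1 library apart from Piwi aubRK with 2, and no test was run. The computation was tested on simulated data. The pooled difference was split into mean abundance share times difference in sense share, and mean sense share times difference in abundance share.

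The named transposons were the 5 most abundant, the 6 with the largest difference in sense share in each direction, the 3 with the largest abundance ratio and the 3 with the largest contribution in each direction, the soma-dominant class, the telomeric and hybrid dysgenesis elements, and those nearest to 50 copies. Others were named after their values were seen. Transposon orders and both element lists came from background knowledge, and 6 names had no order. Members and lists were chosen with earlier results of these data known. Alternatives were entries, a pseudocount of 10, TMM (edgeR 4.0.16) and the size factors of DESeq2 1.42.0 under R 4.3.3, minimum copies of 10 or 500 or none, 20 points, single strands, the median, the germline-dominant class, leaving out roo, and Ago3 y w.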

Additional observations from a re-analysis of the deposited data

Results flagged for a closer look

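Several gaps between Ago3 and Aub had the opposite sign in another genotype, without a test of the difference, since each genotype has 1 Ago3 and 1 Aub library. The median of the soma-dominant elements was −5.62 points in aubWT, 25.3 points in w1118 and 13.8 points in csulRM50. The median of the DNA transposons was −1.45 points in aubWT, 8.79 points in w1118 and 3.06 points in csulRM50. In aubRK some values that were positive in aubWT were negative, among them those of the main measures, the classes and the orders that follow. The pooled difference was −5.41 points against 26.3 in aubWT, the median over transposons −3.13 against 7.71, the median of the intermediate class −13.8 against 9.30, that of the elements without a class −2.26 against 7.16, and the median of the LTR elements −9.56 against 3.73. The w1118 and csulRM50 libraries also differ from those of aubWT in protocol, adaptor and antibodies, and the aubRK Ago3 library in its adaptor, and the part of each was not tested.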

How the results depend on the processing

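No paired analysis was possible because Ago3 and Aub have 1 library each per genotype and share only replicate number 1, and for the same reason no replicate could be left out. The pooled difference of 26.3 points kept its sign under every alternative run, at 21.996 with entries, 25.0 without roo, 34.0 in the germline-dominant class alone, 7.71 as the median over transposons and 18.2 with Ago3 y w, an alternative chosen after seeing the data. Its within-transposon part was 20.9, 23.8 and 30.6 points under the first 3 of these. With Ago3 y w that part was 15.1 points, or 82.7% of the pooled difference, and 3.15 points came from differences in abundance. The median difference was 6.003 with Ago3 y w. At 20 points instead of 10, 7 elements were lower in Ago3 in place of 18. Over 2-fold, 6 elements were higher in Ago3, and 1 with entries, 12 with DESeq2 size factors and 29 with antisense copies alone, whereas 19 were lower, and 48 with sense and 11 with antisense copies alone, each strand then scaled to its own total. The soma-dominant share of Ago3 exceeded that of Aub by 0.175 points, and by 0.053 points with entries. Of the other alternatives of these main results, 29 stayed within the limits set. These limits were wide for counts. At 20 points, 40 elements higher in Ago3 in place of 55 lay within them. So did 26 with entries and 13 with DESeq2 size factors in place of 19 over 2-fold lower. The 29 are not independent, as minimums of 1 and of 10 copies gave the same values. Among named elements, entries turned the sense share difference of Bari2 to 8.41 points and the log2 abundance ratios of Tabor to −0.0541 and ZAM to −0.0467, and DESeq2 turned that of gypsy to 0.0405. Ago3 y w turned the differences of 297 (−0.57), Bari2 (12.2), P-element (−14.8), TART-B (−15.2), Tabor (0.15), Tc1-2 (2.52), ZAM (−9.50), gypsy (13.2) and gypsy5 (1.22). The cause was not tested.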

Other observations

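R1A1-element and R2-element, which insert into ribosomal RNA genes, and R1-2, chosen after their values were seen, were mostly antisense in both proteins. R1A1-element was 45.5% sense in Ago3 and 28.7% in Aub, R2-element 29.2% and 15.8%, and R1-2 13.3% and 14.96%. In Ago3 of y w, R1A1-element was 59.0% sense and R1-2 53.6%, so that both were mostly sense there. Burdock and HMS-Beagle, LTR elements also chosen after their values were seen, were mostly sense in both proteins of aubWT, Burdock at 72.9% in Ago3 and 85.9% in Aub, and HMS-Beagle at 61.1% and 72.8%. In w1118, where Ago3 exceeded Aub on both, the differences were 38.4 points for Burdock and 32.3 for HMS-Beagle, against −13.1 and −11.6 in aubWT.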
